A study of Mus musculus with 10 samples.

Results

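The 10 genes examined here encode the glucose transporter Slc2a3 and 9 enzymes of glycolysis between hexokinase and lactate dehydrogenase (Hk1, Gpi1, Pfkp, Aldoa, Tpi1, Gapdh, Pgk1, Pkm and Ldha). They were chosen by symbol, as rows of a count table of 23420 genes, and all 10 were found in it. The table holds platelet RNA from the peripheral blood of adult mice, sorted by flow cytometry into a fraction with the red fluorescent protein Tomato (Tomato+) and a fraction without it (Tomato-). There are 5 libraries of each fraction, and the comparison asks whether transcripts differ between them. The sources used here give neither the strain, the exact age, the gene that drives Tomato, nor whether the libraries of a fraction came from separate or pooled animals. The p-values therefore measure spread between libraries only, and that spread may be technical. The libraries were numbered 1 to 5 (Tomato+) and 6 to 10 (Tomato-), and an effect of this numbering and of the fraction cannot be told apart.

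Platelets carry no nucleus and translate and degrade RNA that they received from megakaryocytes. They take up glucose through GLUT3, the product of Slc2a3, which sits in the plasma membrane and in alpha granule membranes. Glycolysis then splits glucose into pyruvate, yielding ATP, and lactate dehydrogenase returns pyruvate to lactate so that the pathway can go on. Activated platelets raise their glucose uptake and lactate output.

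Total counts ran from 5411417 to 16179973 per library, and a library had between 807 and 2450 genes with a count. Replicates 1, 2 and 5 of Tomato- had under 1000 detected genes (902, 978 and 807), and no Tomato+ library did. All 6 platelet markers (Itga2b, Pf4, Ppbp, Gp9, Tubb1 and Itgb3) were abundant, with sums of 36512 to 52691 counts per 1000000 counts of the library (CPM) in Tomato+ and 38915 to 51219 CPM in Tomato-. Of the other cell types listed, 5 of 6 neutrophil markers and 5 of 6 lymphocyte markers had no count in any library. The remaining neutrophil marker, S100a9, reached 240 CPM in Tomato+ and stood at 0 in Tomato-. The remaining lymphocyte marker, Nkg7, reached 20.7 CPM in Tomato- and stood at 0 in Tomato+. Lyz2 alone among the leukocyte markers was high throughout, while Csf1r, Cd14 and Ccr2 were at 0. Red cell markers summed to 1.38 to 338 CPM in Tomato+ and 47.7 to 3440 CPM in Tomato-, with Hba-a1, Hba-a2 and Slc4a1 at 0. The part of these in the values below was not tested. Reads are not marked by molecular identifiers, so intervals and limits from counts cover counting error only.

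Summed over the 10 genes, the fractions overlapped. The sums came to 7387, 4622, 3786, 5249 and 5905 CPM in Tomato+ replicates 1 to 5 and to 4637, 4299, 6553, 6037 and 4826 CPM in Tomato-. The Tomato- range lay within that of Tomato+. The means were 5390 ± 1363 and 5270 ± 971 CPM (SD, n = 5 each), or 0.539 ± 0.136% and 0.527 ± 0.0971% of all counts. In these bulk samples fewer cells of a kind and less RNA per cell cannot be told apart.

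Counts were found for 8 of the genes, and Gpi1 and Pfkp had none in any library. Slc2a3, Aldoa, Tpi1 and Pkm had 10 or more counts in all 10 libraries. Hk1 reached 10 counts in 8 libraries, Gapdh in 8, Ldha in 5 and Pgk1 in 4. Which gene led the sum differed from library to library. Slc2a3 led in Tomato+ replicates 1 and 2 and Tomato- replicate 5. Aldoa led in Tomato+ replicate 3, and Pkm in replicates 4 and 5 of Tomato+ and 3 and 4 of Tomato-. Hk1 led in Tomato- replicates 1 and 2.

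**Figure D1:**
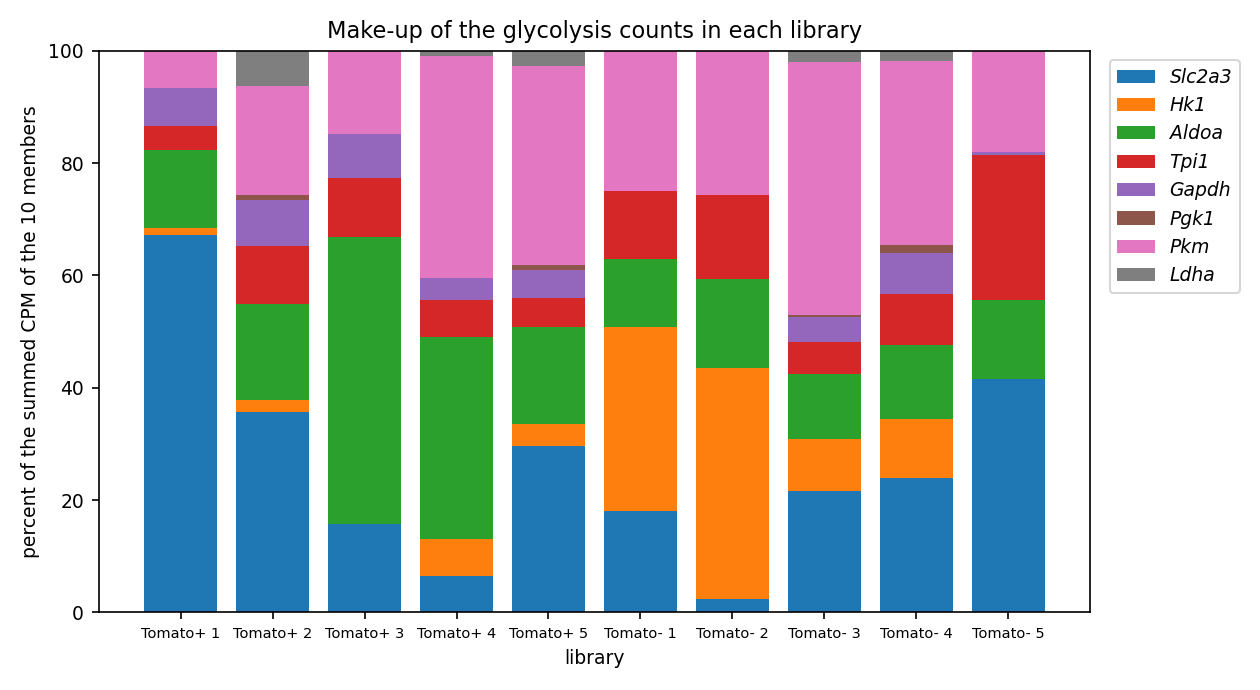
Each bar is 1 library and each colour the percent (y axis) of the summed CPM of the 10 genes that a gene took; Gpi1 and Pfkp had no counts. Slc2a3 took 67.1% in Tomato+ replicate 1 and 2.46% in Tomato- replicate 2, and Hk1 took 41.0% in the latter.

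None of the 10 genes was called different between the fractions. Of the 10, 7 could be tested with edgeR, since Gpi1, Pfkp and Pgk1 did not pass its filter on low counts. Of these, 0 reached an adjusted p under 0.05 in either direction, where 0% of the 1016 tested genes were called higher and 0% lower, and each had an adjusted p of 0.9996. None of the 7 had an unadjusted p under 0.05 in this edgeR fit, where 0.886% of tested genes did. DESeq2 called none of the 7 either (0% of genes higher and 0.0998% lower), nor did limma voom (0.0984% higher and 0% lower). Aldoa had an unadjusted p of 0.0104 in DESeq2, where 26 genes were under 0.05. It had 0.0162 in edgeR on genes with 10 counts in every library, where 13 of 225 were. Gapdh had 0.0242 in limma voom, where 67 of 1016 were. The adjusted p-values were 0.9997, 0.609 and 0.686 in turn. Permutation p-values of Aldoa and Tpi1 are given below. Slc2a3, Aldoa, Gapdh and Ldha had a positive log2 fold change (Tomato+ over Tomato-) and Hk1, Tpi1 and Pkm a negative one. Their median was 0.78, beside 0.21 over all tested genes, of which 58.3% were positive. With scaling by total counts the member median was 0.68 and that of all genes -0.03, with 48.6% positive, and the same 4 members were positive. The member median rests on few genes. It was 0.02 without Tomato- replicate 2, 0.05 without Tomato+ replicate 1 and 0.20 without Tomato+ replicate 2, and reached 0.98 without Tomato- replicate 4. It was 0.22 over the 4 members with 10 counts in every library and -0.26 over 8 members without the 3 libraries under 1000 detected genes.

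**Figure D2:**
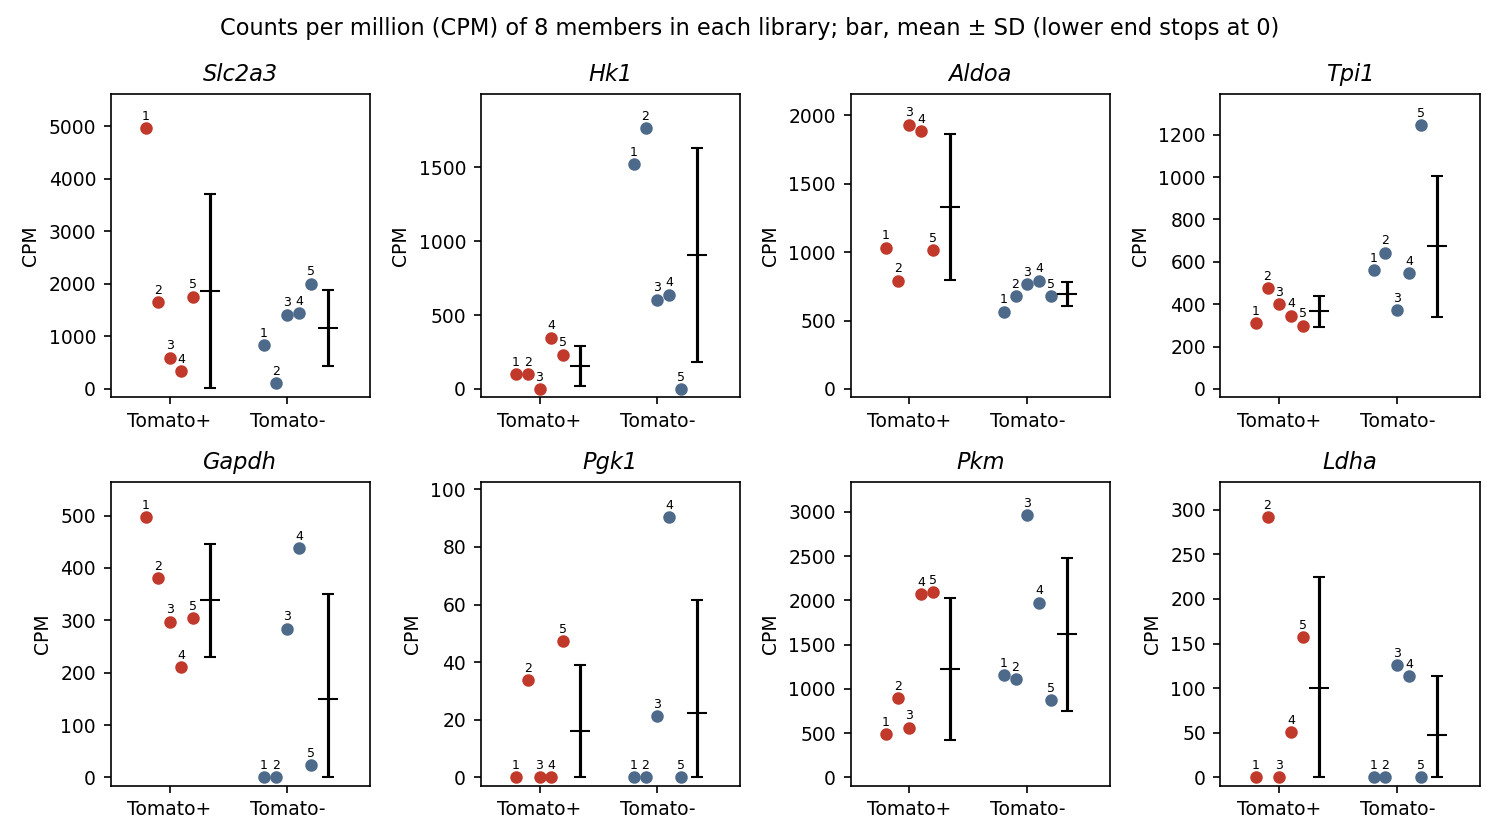
Points give the CPM (y axis, linear) of each library, labelled with its replicate number, for the 8 genes with counts; bars show mean ± SD of 5 libraries. The fractions overlap for every gene shown but Aldoa, where the lowest Tomato+ library (793.0 CPM) lies just above the highest Tomato- library (791.5 CPM).

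Slc2a3, the transporter that lets glucose into the platelet, had 4957, 1650, 596, 340.5 and 1753 CPM in Tomato+ replicates 1 to 5. In Tomato- it had 836, 106, 1416, 1446 and 2006 CPM. Tomato+ replicate 1 was the highest of all and Tomato- replicate 2 the lowest, and the other libraries of both fractions overlapped. The means were 1859 ± 1841 and 1162 ± 721 CPM (SD, n = 5 each), and the Tomato+ mean was 1085 CPM without replicate 1. The log2 fold change was 0.78 (SE 0.74, 95% interval -0.80 to 2.36, edgeR adjusted p = 0.9996), and it was 0.12 without Tomato+ replicate 1, 0.43 without Tomato- replicate 2 and 0.28 without the 3 libraries under 1000 detected genes. No other glucose transporter listed had a count: Slc2a1, Slc2a4, Slc2a6 and Slc2a8 were at 0 in all libraries. The gene lies on chromosome 6 at 122727809 to 122801640 (minus strand, GRCm38).

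Hk1, the hexokinase that traps glucose in the cell by phosphorylating it, had the log2 fold change farthest from 0 among the 7 tested genes in edgeR, though Gapdh was farther in limma voom, in both fits with the replicate block and on the log2(CPM + 1) scale. Tomato+ libraries had 98.3, 98.4, 0, 346.0 and 232 CPM. Tomato- libraries had 1519, 1762, 604, 637 and 0.554 CPM, the last from 3 counts. Replicates 1 to 4 of Tomato- thus lay above every Tomato+ library, and replicate 5 lay below all but Tomato+ replicate 3, for which counting error allows up to 0.461 CPM. The means were 155 ± 135 and 905 ± 723 CPM (SD, n = 5 each). This gave a log2 fold change of -2.22 (SE 1.76, 95% interval -5.96 to 1.53), which did not pass in edgeR (adjusted p = 0.9996), and it ran from -2.83 to -1.88 over 18 other settings. Without Tomato- replicate 5 it was -2.66 (adjusted p = 0.9987). Tomato- replicates 1 and 2, the highest, are among the libraries with under 1000 detected genes, as is replicate 5. Without these 3 the Tomato- mean was 621 CPM and the log2 fold change remained negative (-2.005).

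Among other hexokinase genes, Hk2 reached 2 counts at most in a library, and Hk3 and Hkdc1 had none. The gene spans chromosome 10 from 62268855 to 62379908 (minus strand, GRCm38), and RefSeq (GRCm38.p6) lists 2 start sites, whose transcripts share 1 row of the table. The 250 bases before each are shown because counts of Hk1 cannot be assigned to either start. The motif searched, ACGTG on either strand, the core bound by the hypoxia-inducible factor HIF, which activates glycolysis genes, would stand in capitals, and neither stretch holds it. The upstream one lies at chr10:62379909-62380158 and the downstream one at chr10:62340422-62340671.
Hk1 upstream start: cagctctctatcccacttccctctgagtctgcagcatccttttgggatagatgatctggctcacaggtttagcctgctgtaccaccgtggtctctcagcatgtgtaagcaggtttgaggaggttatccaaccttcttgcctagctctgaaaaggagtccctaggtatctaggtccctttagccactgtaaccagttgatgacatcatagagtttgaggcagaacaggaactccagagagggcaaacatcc
Hk1 downstream start: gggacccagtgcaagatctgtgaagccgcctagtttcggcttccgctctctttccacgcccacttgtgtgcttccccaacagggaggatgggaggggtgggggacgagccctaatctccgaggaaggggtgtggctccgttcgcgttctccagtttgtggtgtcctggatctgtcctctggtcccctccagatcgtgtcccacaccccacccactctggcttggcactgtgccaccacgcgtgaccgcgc
The full windows, which add 50 bases after the start, hold 1 CpG at the upstream start and 20 at the downstream start, where 2 motif matches fall in those last bases.

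The next steps left no counts. Gpi1, which converts glucose 6-phosphate to fructose 6-phosphate, and Pfkp, the phosphofructokinase subunit named after platelets, had 0 counts in all 10 libraries, as had the other phosphofructokinase genes Pfkl and Pfkm. Counting error alone would allow 0.185 to 0.554 CPM by library. These limits do not bound the level in the cells, since a gene such as Gapdh ran from 0 to 497 CPM between libraries. Of all 23420 rows, 80.0% had no count in any library. Gpi1 lies on chromosome 7 at 34201330 to 34230336 and Pfkp on chromosome 13 at 6579768 to 6648777.

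Aldoa, the aldolase that splits the sugar into a pair of triose phosphates, was the only tested member whose CPM ranges did not overlap between fractions. Tomato+ libraries had 1033, 793, 1932, 1884 and 1017 CPM. Tomato- libraries had 565, 681, 767, 791 and 679 CPM. All 5 Tomato+ values lay above all 5 Tomato- values, as for 0.492% of the 1016 tested genes that were likewise higher in Tomato+ (0.0984% were lower), but Tomato+ replicate 2 (95% Wilson interval 778 to 808 CPM) and Tomato- replicate 4 (775 to 809 CPM) agree within counting error. On library sizes scaled by TMM (trimmed mean of M values, edgeR's default) the ranges of Aldoa did overlap, at 907 to 2249 and 519 to 932, while 0.787% of tested genes were higher without overlap on that scale and 0.0984% lower. The means were 1332 ± 535 and 697 ± 89.1 CPM (SD, n = 5 each).

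The log2 fold change of Aldoa was 1.15 (SE 0.57, 95% interval -0.06 to 2.36, edgeR adjusted p = 0.9996). It stayed positive in 19 of 19 other settings, from 0.85 to 1.29. An exact two-sided permutation of log2(CPM + 1) gave p = 0.00794, the smallest that 252 assignments allow, and an adjusted p of 0.896 over all tested genes, of which 5.31% had an unadjusted p under 0.05 in that test. The unadjusted p follows from the separate CPM ranges, and the settings reuse the same libraries, so neither is further support. Replicates 3 and 4 were the highest of Tomato+. The SD of Aldoa was 40.2% of the mean CPM in Tomato+ and 12.8% in Tomato-. Its within-fraction SD on the log2(CPM + 1) scale, pooled over both fractions, was 0.43. The median was 0.67 over the 225 genes with 10 counts in every library, of which 26.7% had a smaller SD than Aldoa. Aldoc had no counts, while the rows Aldoart1 and Aldoart2, retrogenes of Aldoa named here after their values were seen, had at most 6 and 2 counts.

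Aldoa lies on chromosome 7 at 126795234 to 126800751 (minus strand, GRCm38). RefSeq lists 3 start sites, and the 250 bases before the second, at chr7:126799255-126799504, are printed because the ranges of this gene were apart; the 1 match to the motif, on the opposite strand, is in capitals and lies also in the overlapping window of the third.
Aldoa second start: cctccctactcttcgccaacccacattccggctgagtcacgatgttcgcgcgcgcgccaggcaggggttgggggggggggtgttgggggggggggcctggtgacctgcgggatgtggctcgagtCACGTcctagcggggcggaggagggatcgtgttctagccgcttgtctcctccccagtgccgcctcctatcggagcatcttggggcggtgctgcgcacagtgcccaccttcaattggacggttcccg

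Tpi1, which interconverts the triose phosphates made by aldolase, had the lower mean in Tomato+. Tomato+ libraries had 311, 476, 399, 345.2 and 298 CPM. Tomato- libraries had 559, 643, 372, 545 and 1243 CPM. All but Tomato- replicate 3 lay above every Tomato+ library, and replicate 5 was the highest. The means were 366 ± 72.7 and 673 ± 334 CPM (SD, n = 5 each), and the Tomato- mean was 530 CPM without replicate 5. Tpi1 had a log2 fold change of -0.60 (SE 1.09, 95% interval -2.91 to 1.72, edgeR adjusted p = 0.9996), -0.29 without Tomato- replicate 5 and -0.28 without the 3 libraries under 1000 detected genes. The exact two-sided permutation test gave p = 0.0238, with an adjusted p of 0.896 over all tested genes. So 2 neighbouring steps, Aldoa and Tpi1, had mean differences of opposite sign. Tpi1 lies on chromosome 6 at 124810586 to 124814296.

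Gapdh, the dehydrogenase that makes NADH in glycolysis and often serves as a reference gene, was present in every Tomato+ library. It had 497, 380.4, 298, 210.1 and 303 CPM there. Tomato- libraries had 0, 0, 284, 438 and 23.5 CPM. The 3 low libraries, replicates 1, 2 and 5, are those with under 1000 detected genes, and replicates 3 and 4 lay within the Tomato+ range. The means were 338 ± 108 and 149 ± 201 CPM (SD, n = 5 each), and without those 3 libraries the Tomato- mean was 361 CPM. Gapdh had a log2 fold change of 1.14 (SE 2.12, 95% interval -3.35 to 5.64, edgeR adjusted p = 0.9996), which turned to -0.10 without them. Other fits gave larger values: 5.88 in limma voom (adjusted p = 0.686), 4.54 in edgeR with the replicate block, 4.47 in voom with that block, 4.04 on the log2(CPM + 1) scale and 2.32 in edgeR without Tomato- replicate 4. Gapdh lies on chromosome 6 at 125161715 to 125166467, on the same chromosome as Slc2a3 and Tpi1.

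Pgk1, the kinase that makes the first ATP of the pathway's second phase, had counts in Tomato+ replicates 2 and 5 (33.7 and 47.2 CPM) and Tomato- replicates 3 and 4 (21.3 and 90.4 CPM). All 6 other libraries had 0 counts. The means were 16.2 ± 22.7 and 22.3 ± 39.2 CPM (SD, n = 5 each). With no filter on low counts the log2 fold change was -0.44 (SE 3.90, edgeR adjusted p = 0.985). In the settings that left out libraries and could test Pgk1, it ran from -0.75 without Tomato- replicate 2 to -0.03 without Tomato+ replicate 1, and it was -1.75 without the 3 libraries under 1000 detected genes. Each of the 4 libraries with Pgk1 also had Ldha. Pgk1 lies on chromosome X at 106187100 to 106203699.

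The mutase and enolase between Pgk1 and Pkm, not among the 10 genes, had few counts. Pgam1 had counts in Tomato+ replicates 2 and 5 only (34.7 and 7.85 CPM), Eno1 and Eno2 had none, and Eno3 had 9.61 CPM in Tomato- replicate 5 alone. The gene models and the treatment of multiply aligned reads are unknown, and Eno1b has no row, so the zeros of Eno1, Gpi1, Pfkp and others listed at 0 say only that the table holds no count for them.

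Pkm, the pyruvate kinase of most tissues, which makes ATP and pyruvate, had 491, 899, 562, 2073 and 2097 CPM in Tomato+ libraries. Tomato- libraries had 1158, 1107, 2964, 1975 and 874 CPM. High and low libraries occurred in both fractions, and the ranges overlapped. The means were 1224 ± 801 and 1615 ± 861 CPM (SD, n = 5 each). The log2 fold change was -0.23 (SE 0.60, 95% interval -1.50 to 1.04, edgeR adjusted p = 0.9996), and its sign turned without Tomato- replicate 3 (0.13), while it was -0.96 without the 3 libraries under 1000 detected genes. Pklr, the liver and red cell pyruvate kinase, had 0 counts in all libraries. Pkm lies on chromosome 9 at 59656368 to 59679375.

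Ldha, the lactate dehydrogenase subunit that favours lactate formation, had 292, 50.9 and 157 CPM in Tomato+ replicates 2, 4 and 5 and 0 counts in replicates 1 and 3. Tomato- replicates 3 and 4 had 125 and 114 CPM, replicate 5 had 0.370 CPM from 2 counts, and replicates 1 and 2 had 0. Libraries without a count of Ldha thus occurred in both fractions. The means were 100.01 ± 125 and 47.9 ± 65.5 CPM (SD, n = 5 each). Ldha had a log2 fold change of 1.07 (SE 2.75, 95% interval -4.77 to 6.92, edgeR adjusted p = 0.9996). It was 0.20 without Tomato+ replicate 2 and -0.23 without the 3 libraries under 1000 detected genes. Ldhb and Ldhc had no counts.

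Ldha lies on chromosome 7 at 46841475 to 46855627 (plus strand, GRCm38). Of the RefSeq windows of the members, that at its first start site held the most matches to ACGTG, 5 with each strand counted, and it is printed for that reason (chr7:46845554-46845803). A CACGTG run in capitals holds 1 match on each strand, which overlap.
Ldha first start: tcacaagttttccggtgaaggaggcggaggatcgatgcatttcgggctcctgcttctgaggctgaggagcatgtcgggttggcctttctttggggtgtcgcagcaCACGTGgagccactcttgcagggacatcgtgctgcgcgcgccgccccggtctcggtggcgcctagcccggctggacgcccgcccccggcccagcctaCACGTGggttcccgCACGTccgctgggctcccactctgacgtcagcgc
Promoter windows of 300 bases (250 before and 50 after the start) were found for 9 of the 10 genes, all but Slc2a3. The motif occurred in at least 1 window of 6 of the 9, namely Hk1, Aldoa, Gapdh, Pgk1, Pkm and Ldha. It was in 7 of the 14 windows of the 9 genes, where the 1 Aldoa match counts in 2 overlapping windows. The motif was in 19.6% of all 32851 RefSeq windows, and 21.8% of 27025 genes had a window with it. ACGTG holds a CpG, and the member windows had 51.3 to 67.3% G and C, beside a median of 52.7% over all windows. The part of this base make-up in the number of matches was not tested. A match describes the letters and is not a binding site, and Hif1a itself had counts in 1 library (12.2 CPM in Tomato- replicate 3).

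**Figure D3:**
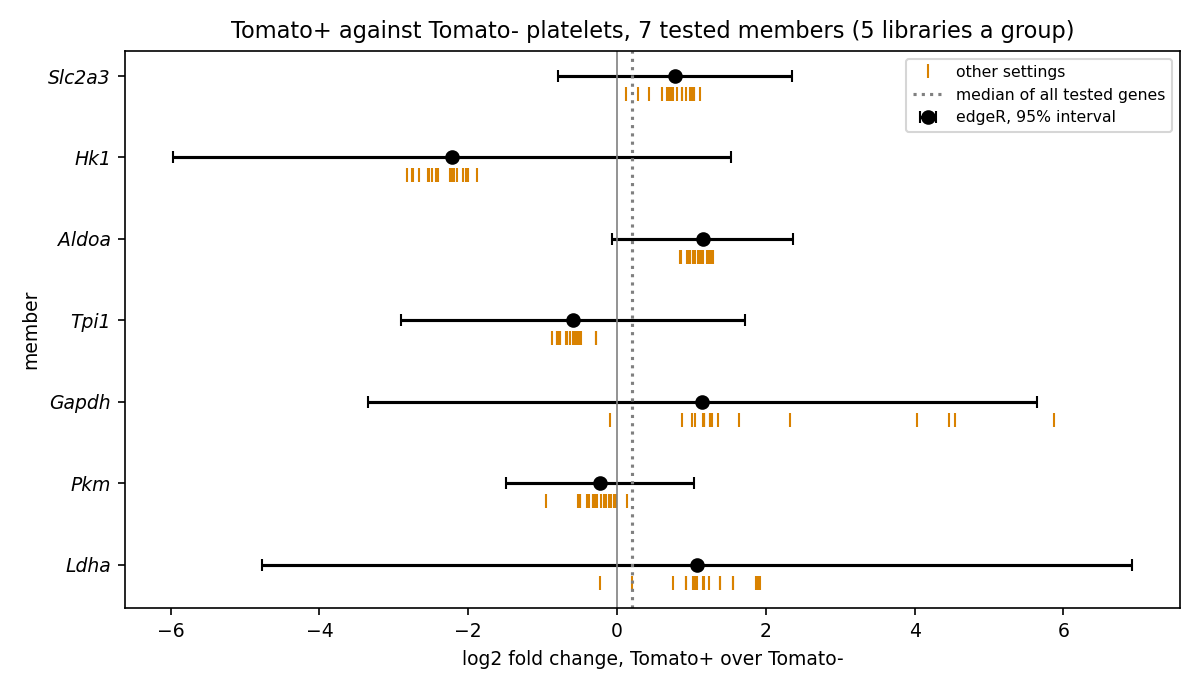
Black points are log2 fold changes (x axis, Tomato+ over Tomato-) from edgeR with 95% intervals for the 7 tested genes, orange ticks the same gene in other settings, and the dotted line the median of all tested genes (0.21). Every interval includes 0; the ticks of Gapdh, Pkm and Ldha fall on both sides of it.

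Levels of different genes were compared as CPM per kilobase of merged exons (RPKM), since counts grow with transcript length. Over all 10 libraries Aldoa had 556 ± 270 RPKM (SD, n = 10), Pkm 546 ± 312, Slc2a3 382 ± 346, Tpi1 294 ± 158, Gapdh 163 ± 122, Hk1 109 ± 130, Ldha 39.0 ± 51.7 and Pgk1 10.6 ± 16.6. No pair of neighbours in this order differed by more than the SD of their difference across libraries. Aldoa exceeded Pkm in 5 of 10 libraries, Slc2a3 exceeded Tpi1 in 5, and Tpi1 exceeded Gapdh in 8. Within Tomato+ the order began with Aldoa (730 ± 293 RPKM), then Pkm (471.0 ± 308) and Slc2a3 (469.6 ± 465), nearly level. Hk1 came next to last of the 8 (31.9 ± 27.8). Within Tomato- it began with Pkm (622 ± 331), then Aldoa (381.9 ± 48.8) and Tpi1 (381.3 ± 189), nearly level. Hk1 came there between Slc2a3 and Gapdh (186 ± 149).

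Spread within a fraction differed widely among the genes. The within-fraction SD on the log2(CPM + 1) scale was 0.43 for Aldoa and 0.49 for Tpi1, below the median of 0.67 over the 225 genes with 10 counts in every library. It was 0.87 for Pkm and 1.60 for Slc2a3, larger than in 65.8% and 85.3% of those genes. It was 3.02 for Gapdh and 3.84 for both Hk1 and Ldha, each without counts in at least 1 library, beside a median of 3.30 over all 1016 tested genes. The number of members with a count was 5, 5 and 7 in the 3 libraries under 1000 detected genes and 8 in each of the 2 libraries with the most detected genes (2430 and 2450). Tomato+ replicates 1 and 3, next in detected genes (1243 and 1118), had 6 and 5. The order was not strict, since Tomato+ replicate 2 with 1421 detected genes had 8 and Tomato+ replicate 4 with 1713 had 7, as many as the library with 807. In that library, Tomato- replicate 5, Hk1 and Ldha had only 3 and 2 counts. Members with 10 or more counts numbered 5 there and 7 in Tomato+ replicate 4.

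**Figure D4:**
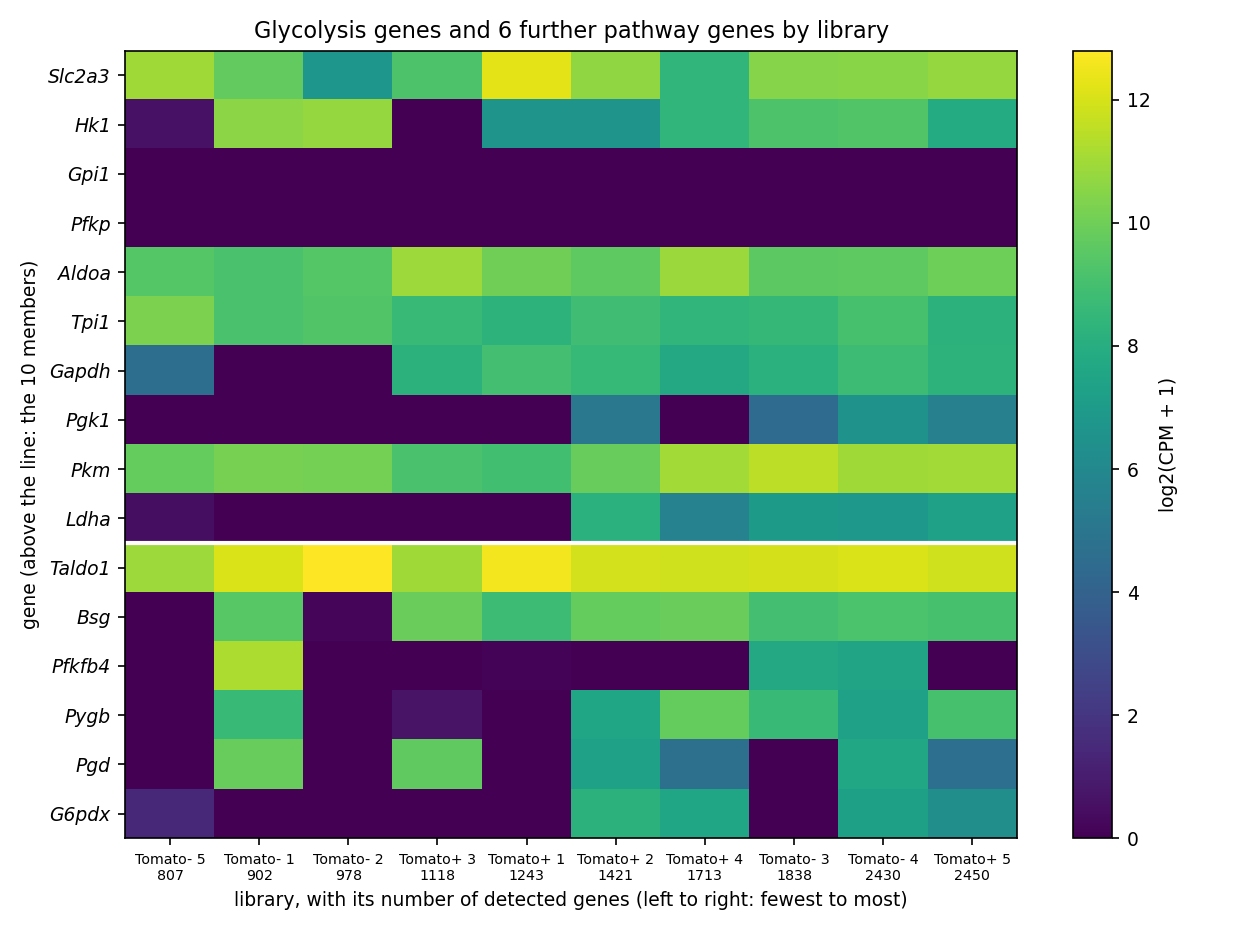
Colour gives log2(CPM + 1) of the 10 genes (above the white line) and 6 further pathway genes (below it) in each library, ordered on the x axis by its number of detected genes. Aldoa, Tpi1 and Pkm are found throughout, while Pgk1 and Ldha lack counts mainly in the libraries on the left.

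For the 4 genes with 10 counts in every library, the most alike gene was sought by the root mean square difference of centred log2(CPM + 1) over 10 libraries, among the 225 genes with such counts less predicted gene models and the gene itself, which left 215. Tpi1 was closest to Cd81, which encodes a tetraspanin, at 0.26, where the SD of Tpi1 itself over the libraries was 0.62. Aldoa was closest to Dap (0.40, own SD 0.60), Pkm to the phosphatase gene Ptpn18 (0.59, own SD 0.87), and Slc2a3 to the integrin gene Itga6 (1.02, own SD 1.55). The smallest of 215 distances is low by choice. As Tpi1, Cd81 was highest in Tomato- replicate 5, at 4542 CPM, against 1448 to 3281 CPM elsewhere. These are descriptions over libraries that share depth and preparation.

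Other genes of glucose use were sparser still. Of 61 listed, 59 had a row. Counts were found for 21, and 38 stood at 0 throughout, among them Slc16a1 and Slc16a3 (lactate transporters), Tkt (transketolase) and Gys1 (glycogen synthase). Only 6 could be tested in edgeR (Bsg, Mpc1, G6pdx, Pgd, Taldo1 and Pygb), and 0 passed in either direction. All 6 had a positive log2 fold change, median 1.03, where 58.3% of all tested genes were positive. Scaled by total counts, positive values were found for 4 of 6, beside 48.6% of all genes, and Taldo1 (-0.15) and Pgd (-0.09) turned negative.

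Taldo1, the transaldolase that links the pentose phosphate pathway to glycolysis, was the most abundant of these and was present in every library. It had 6164, 3924, 1996, 3709 and 3708 CPM in Tomato+ and 4273, 7117, 3974, 4364 and 1949 CPM in Tomato-. The ranges overlapped nearly fully, and the log2 fold change was 0.07 (SE 0.33, 95% interval -0.64 to 0.78, edgeR adjusted p = 0.9996). A difference of 1 log2 unit in either direction thus lay outside its interval. The mean CPM was lower in Tomato+ (3900 ± 1485) than in Tomato- (4335 ± 1842; SD, n = 5 each). The sign of the log2 fold change of Taldo1 turned in several settings, among them DESeq2 (-0.09), the log2(CPM + 1) scale (-0.13), without Tomato- replicate 5 (-0.12), without Tomato+ replicate 1 (-0.14) and without the 3 libraries under 1000 detected genes (-0.12). Bsg, which encodes basigin, a partner of lactate transporters that red cells also carry, had 430.3 to 939 CPM in Tomato+. It had 702, 0.125, 495, 581 and 0 CPM in Tomato-, where the low values fell in replicates 2 and 5.

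The remaining 4 named genes were irregular. Pfkfb4, which sets the level of the bisphosphate that activates phosphofructokinase, had 2405, 212 and 178 CPM in Tomato- replicates 1, 3 and 4 and 1 count in all Tomato+ libraries together. Pfkfb4 did not pass edgeR's filter. With no filter its edgeR adjusted p was 0.128. This was the smallest in that fit but was shared with other genes, and 1764 of 4692 genes had an unadjusted p under 0.05. Without the 3 libraries under 1000 detected genes it could be tested, with a log2 fold change of -12.9 (edgeR adjusted p = 0.784). Pygb, a glycogen phosphorylase, had 316 ± 376 CPM in Tomato+ and 193 ± 201 in Tomato- (SD, n = 5 each). Pgd and G6pdx, the dehydrogenases that make NADPH in the pentose phosphate pathway, had 205 ± 347 and 113 ± 130 CPM in Tomato+ and 219 ± 388 and 30.6 ± 67.4 CPM in Tomato-. For these 3 genes no difference between fractions passed (edgeR adjusted p = 0.9996 each).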

How the data were processed

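RNA of sorted mouse platelets was sequenced from 5 Tomato+ and 5 Tomato- libraries; per the labels' protocols, cDNA was made by a Smart-seq+ protocol and libraries by Nextera XT. The authors deposited raw counts of reads per gene in 1 table, without normalization. Per the submitters' processing notes, Trimmomatic, FastQC, STAR and featureCounts were used with the build mm10. Tool versions, gene models, strandedness and the treatment of multiply aligned reads were not given in the sources used here. RefSeq names pseudogenes after Aldoa (2), Gapdh (3), Pgk1 (3) and Ldha (3), none of which has a row, so counts of these genes are uncertain. Pseudogenes under other names were not counted. GENCODE lists overlapping genes on the same strand for Slc2a3 (the processed pseudogene Gm4482) and Pkm (Gm49759), neither with a row. Reads of overlapping genes on the other strand, such as the antisense gene of Hk1, cannot be told apart.

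Groups and replicate numbers follow the titles. CPM used all rows as the library size (5411417 to 16179973 counts). No pair of libraries agreed within counting noise (over 45 pairs, chi-square divided by its degrees of freedom was 451 or more). Tomato+ and Tomato- were compared on the whole table with edgeR's quasi-likelihood test (version 4.0.16, R 4.3.3, TMM, minimum count 10, minimum total 15, group as sole term), with Benjamini-Hochberg adjustment at 0.05; SE is the log2 fold change over the root of F. Alternatives were scaling by total counts, DESeq2 1.42.0, limma 3.58.1 voom, no filter, 10 counts in every library, a replicate block, exact permutation of log2(CPM + 1), each library left out, and the libraries under 1000 detected genes left out. Fits were tested on simulated counts. Gene coordinates and merged exon lengths come from GENCODE M21 (GRCm38, the assembly mm10 names), taking for Aldoa, which has 2 entries there, the one that overlaps the RefSeq gene. Promoters come from RefSeq (GRCm38.p6). The limit for 0 counts is that of 3 counts. Other pathway genes were named if past the threshold or among the 6 with the highest mean CPM; some at or near 0 are named besides, after their values were seen. The members, lists and alternatives were chosen with earlier results of these data known.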

Additional observations from a re-analysis of the deposited data

Results flagged for a closer look

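Among 30 sets of 5 libraries checked (each named gene with counts and the summed CPM, in each fraction), 6 had a library far from the others. For normally distributed values chance gives about 1 in 20. That rate does not apply to sets that hold zeros, as each of the 6 does. Most of the 6 are largely zeros, but Pgd had counts in 4 Tomato+ libraries and Pfkfb4 in 3 Tomato- libraries. Pgk1 was highest in Tomato- replicate 4, at 90.4 CPM, with 21.3 CPM next. Pfkfb4 stood at 2405 CPM in Tomato- replicate 1, with 212 CPM next, and in Tomato+ replicate 1 at 0.0855 CPM from a single count. Pgd stood at 817 CPM in Tomato+ replicate 3, with 159 CPM next, and at 896 CPM in Tomato- replicate 1, with 198 CPM next. G6pdx stood at 151 CPM in Tomato- replicate 4, with 1.66 CPM next. All of these genes lack counts in several libraries.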

How the results depend on the processing

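No alternative called any of the 7 tested members. Over all genes, edgeR called 0 in either direction, with 9 below an unadjusted p of 0.05. Limma voom called 1 higher gene, Ctla2a, for which 1 library held 88.6% of the weight, voom with the replicate block called 2 higher genes (Rn45s and Fth1), and DESeq2 called 1 lower gene, Tug1; none is a member. Same-numbered libraries did not deviate together (correlations -0.107 to 0.119 over the 5 pairs), and edgeR with the replicate block called 0 genes in either direction. These correlations cannot show whether same-numbered libraries came from the same animals. Slc2a3, Hk1, Aldoa and Tpi1 kept their sign in every alternative that tested them. Gapdh ran from -0.10 to 5.88 over 18 alternatives. The log2 fold change turned to -0.10 for Gapdh and -0.23 for Ldha without the libraries under 1000 detected genes, 3 of Tomato-, and to 0.13 for Pkm without Tomato- replicate 3 (-0.50 to 0.13 over all libraries left out in turn); the cause was not tested. Of the tested members 4 of 7 were higher, against 2 of 4 among genes with 10 counts in every library and 2 of 8 without the libraries under 1000 detected genes. Leaving out 1 library gave 4 to 5. The summed CPM of Tomato- was 6295 without the libraries under 1000 detected genes, and without Slc2a3 the sums were 3531 in Tomato+ and 4108 in Tomato-; leaving out 1 library gave 4890 to 5791 and 4950 to 5513. With 5 libraries a fraction and genes without counts in whole libraries, the intervals of Hk1, Gapdh and Ldha span more than 7 log2 units.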
